A study of Solanum tuberosum with 12 samples.

Results

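Among the predicted potato miRNAs, 8 distinct mature sequences of 20 nt at 14 loci were described, out of 222 distinct sequences at 324 loci in the whole list. All entries with a mature sequence of 20 nt were taken, except PotatoMir1004934921, the miR169 sequence with 8 loci and 4484 reads, and PotatoMir1003902286, which had 1 locus and 3 reads. Without these exceptions 10 sequences at 23 loci were 20 nt in length. The list was made from small RNA libraries of Solanum tuberosum group Andigena, clone ADG573, a single clone in which tubers are formed under short days (SD) and not under long days (LD). It was propagated in vitro and grown for 4 weeks under LD in a glasshouse, and plants were then moved to cabinets at 20 °C. The 12 libraries were 3 of leaf, 3 of stolon and 3 of swollen stolon under SD, and 3 of leaf under LD, and the labels give sampling after 8 days for each of these groups, whereas the study's methods give later days for stolon. Reads of all libraries had been put together before the prediction. The list therefore gives 1 read number for each sequence over leaf and stolon, LD and SD, so that no value has an error between replicates, the depth of each library is unknown and no comparison of tissues or day lengths was made. Read numbers that the study's tables give by tissue were not used here. The labelled tissues could not be checked against marker genes, since the list holds no other RNA.

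A plant miRNA is cut by a Dicer-like enzyme from the stem of a hairpin precursor, together with the strand it pairs with, the star sequence. The mature strand is loaded into an Argonaute protein and guides it to transcripts with a nearly complementary site, which are cleaved opposite the central bases of the miRNA or translated less. In plants miR156 acts on transcripts of SQUAMOSA promoter-binding protein-like (SPL) transcription factors and delays the change from the juvenile to the adult phase. In Arabidopsis miR319 acts on transcripts of TCP and, to a lesser extent, GAMYB-type transcription factors, and miR394 on the transcript of an F-box protein of leaf and shoot meristem development.

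Of the 8 sequences, 4 had a homologue name in the tables of the study and 4 had none. They are shown from 5′ to 3′ as deposited, as DNA letters, since the following sections refer to single bases of them. Bases 2 to 8, the seed, are in capitals.
PotatoMir1005943737 (miR394): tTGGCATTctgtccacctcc
PotatoMir1005405793 (miR156): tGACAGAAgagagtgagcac
PotatoMir1003904305 (miR156): cTGACAGAagagagtgagca
PotatoMir1005931858 (miR319): tTGGACTGaagggagctcct
PotatoMir1004966957 (no name): tAGTATGGtagaaagattca
PotatoMir1006055542 (no name): tTTCAAAAggttgtgacttt
PotatoMir1001141891 (no name): aATTCACTagatgatcaagg
PotatoMir1004278785 (no name): gATGTGTAagtctactatgc
No seed was shared among the 8 sequences, although the seeds of both miR156 sequences are the same stretch read from neighbouring bases. A T at the 5′ end was found in 5 of the 8 sequences (62.5%, 95% Wilson interval 30.6 to 86.3%) and in 89 of the 214 other sequences of the list (41.6%, 35.2 to 48.3%). This difference was not tested, and the intervals overlap. The GC share was 50 to 55% in the 4 sequences with a name and 30 to 40% in the 4 sequences without one.

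Counted once each, the 8 sequences had 931 reads or 0.0976% of all reads in the list (0.0915 to 0.104%, 95% Wilson interval), and they made up 3.60% of its distinct sequences. The most abundant sequence of the list, PotatoMir1005257311 with 741106 reads, held 77.7% of the reads, and without it the share of the 8 sequences was 0.437% (0.410 to 0.466%). The median was 59 reads, against 17.5 reads over the other 214 sequences. PotatoMir1005943737 (miR394) had 345 reads (310 to 383, 95% Poisson interval). PotatoMir1005405793 (miR156) had 273 reads (242 to 307), PotatoMir1005931858 (miR319) had 188 reads (162 to 217) and PotatoMir1003904305 (miR156) had 107 reads (87.7 to 129). The intervals of these 4 sequences do not overlap, so that their order was larger than the counting error. Among the sequences without a name, PotatoMir1004966957 had 11 reads (5.49 to 19.7) and PotatoMir1006055542 had 5 reads (1.62 to 11.7). PotatoMir1001141891 and PotatoMir1004278785 had 1 read each (0.0253 to 5.57). For these 4 sequences each interval overlaps that of its neighbour in the order. The 4 named sequences held 913 of the 931 reads (98.1%), and PotatoMir1005943737 alone held 37.1%. All intervals cover counting error only, as no molecular identifiers are stated and copies made by amplification are counted as reads. The study's methods removed sequences with fewer than 5 reads at the end, a step that the list does not contain, and the 2 sequences with 1 read are below this minimum.

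**Figure D1:**
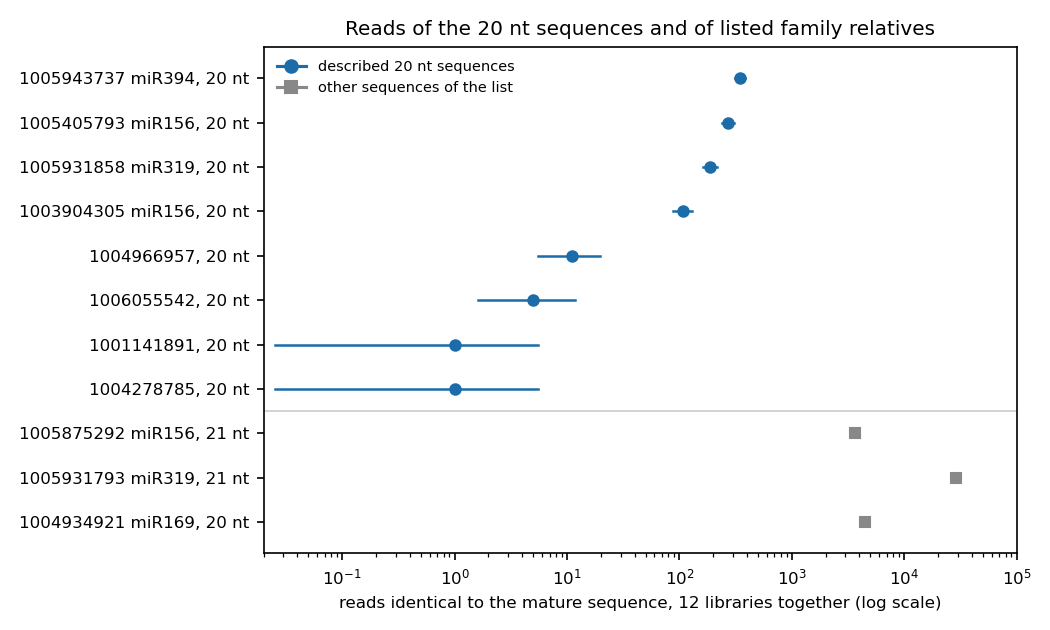
Read numbers of the 8 sequences of 20 nt (circles) and of 3 other sequences of the list (squares), with 95% Poisson intervals, on a log scale. The 4 sequences with a homologue name lie between 107 and 345 reads and the 4 without a name between 1 and 11, all below the 21 nt miR156 sequence with 3670 reads and the 21 nt miR319 sequence with 29010 reads.

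Set against their families, both 20 nt miR156 sequences together had 380 of the 4050 miR156 reads in the list (9.38%, 95% Wilson interval 8.52 to 10.3%). The rest, 3670 reads, belonged to the 21 nt sequence PotatoMir1005875292, which has 4 loci. The 20 nt miR319 sequence had 188 of 29198 miR319 reads (0.644%, 0.558 to 0.742%), and the others belonged to the 21 nt sequence PotatoMir1005931793. For miR394 the 20 nt sequence was the single entry of the list. Of the reads of all 20 nt sequences, the 8 described here had 17.2%, against 82.8% for the miR169 sequence PotatoMir1004934921.

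The 14 loci lay on 10 superscaffolds of the DM potato genome, 9 on the plus and 5 on the minus strand. Whether they lie in genes, exons or introns was not analysed here, since no annotation of this build was used. Of the 8 sequences 6 were placed at 1 locus, PotatoMir1006055542 at 2 loci and PotatoMir1005405793 at 6 loci. Because a sequence at several loci has the same reads at each, the locus from which its reads came cannot be told from the list. The mature sequence was on the 5′ arm of the hairpin at 12 of the 14 loci (85.7%, 95% Wilson interval 60.1 to 96.0%) and at 155 of the 310 other loci (50%, 44.5 to 55.5%). The miR319 sequence and PotatoMir1004278785 were on the 3′ arm. Among the other loci, all 8 of the 20 nt miR169 sequence PotatoMir1004934921 were on the 5′ arm. The 6 loci of PotatoMir1005405793 share 1 sequence and are not independent, and counted by sequence the 5′ arm was used by 6 of 8. The difference between the 14 loci and the others was not tested.

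**Figure D2:**
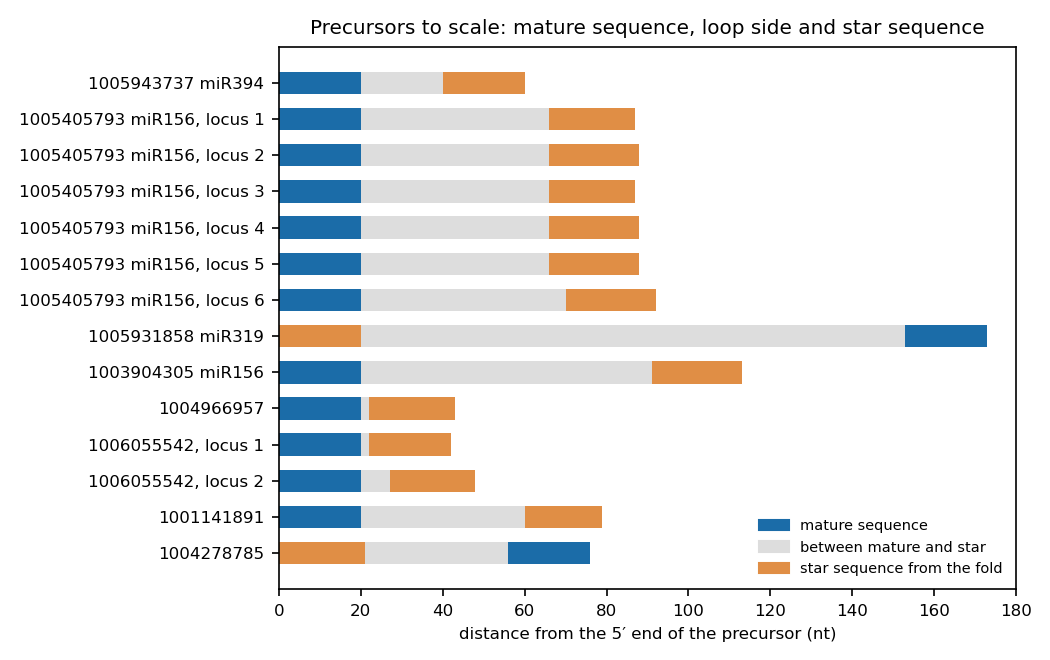
Layout of the 14 deposited precursors to scale, with distance from the 5′ end of the precursor in nt, the mature sequence in blue, the star sequence read from the fold in orange and the bases between them in grey. The precursors range from 42 to 173 nt, the mature sequence stands at the 5′ end in 12 of them, and 2 precursors have 2 nt between mature and star sequence.

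The most placed sequence was PotatoMir1005405793. Its locus 1 lay on the plus strand of PGSC0003DMB000000037 (precursor from 159114 to 159200). The other 5 loci lay on PGSC0003DMB000000135, with locus 2 on the minus strand from 347704 to 347791, and loci 3 to 6 on the plus strand from 449544 to 449630, 518361 to 518448, 518633 to 518720 and 550611 to 550702. These 5 loci spanned 203 kb, and no other locus of the list was found on this superscaffold. The gaps between neighbouring precursors were 101752, 68730, 184 and 31890 nt, so that loci 4 and 5 were next to each other. In all, 3 of the loci had another locus of the same sequence within 50 kb. The second miR156 sequence, PotatoMir1003904305, had its locus on the plus strand of PGSC0003DMB000000116 (1311176 to 1311288). The RefSeq annotation of the potato assembly SolTub_3.0 names 11 MIR156 genes, which were not matched to these loci because the builds differ.

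Loci 1, 3, 4 and 6 of PotatoMir1005405793 and the locus of PotatoMir1003904305 are shown here because the bases outside the mature sequence tell the loci apart. The mature sequence at the 5′ end and the star sequence at the 3′ end are in capitals.
PotatoMir1005405793 locus 1: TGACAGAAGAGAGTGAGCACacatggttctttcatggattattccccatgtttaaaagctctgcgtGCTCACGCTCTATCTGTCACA
PotatoMir1005405793 locus 3: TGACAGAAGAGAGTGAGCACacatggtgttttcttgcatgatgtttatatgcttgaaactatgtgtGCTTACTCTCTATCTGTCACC
PotatoMir1005405793 locus 4: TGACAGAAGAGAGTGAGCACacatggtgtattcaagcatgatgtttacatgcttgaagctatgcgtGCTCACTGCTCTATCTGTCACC
PotatoMir1005405793 locus 6: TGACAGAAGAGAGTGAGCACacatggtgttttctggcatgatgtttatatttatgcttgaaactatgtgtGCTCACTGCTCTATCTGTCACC
PotatoMir1003904305: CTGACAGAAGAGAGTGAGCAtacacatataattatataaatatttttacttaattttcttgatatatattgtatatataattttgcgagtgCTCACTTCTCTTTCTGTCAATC
Over the whole precursor, the 5 loci of PGSC0003DMB000000135 were 89.1 to 96.6% identical to each other (median 93.5%, 10 pairs), and 77.4 to 82.0% identical to locus 1 (5 pairs). In the bases between mature and star sequence the identity was 80 to 95.7% among the 5 loci and 63.5 to 70.2% with locus 1. All pairs share the 20 bases of the mature sequence, which raises the identity of the whole precursor. Loci 2, 4, 5 and 6 had the same star sequence of 22 nt, whereas loci 1 and 3 each had a star sequence of 21 nt of their own. The 6 precursors were 87 to 92 nt in length and had 46 or 50 nt between mature and star sequence. PotatoMir1003904305 had a longer precursor of 113 nt, with 71 nt between the strands and a GC share of 26.5%, against 40.2 to 45.5% at the loci of PotatoMir1005405793.

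Each precursor was folded, and the mature sequence was compared with the star strand by criteria that the study's methods give for plant miRNAs. Those used were opposite arms of the hairpin, no more than 4 mismatches and no more than 1 asymmetric bulge of no more than 2 nt. The study also asks for a 3′ overhang of 2 nt. This overhang was set on the side of the loop when the star sequence was cut, and was not tested on the other side. An asymmetric bulge is a place where one strand has more unpaired bases than the other. The criteria were met at 7 of the 14 loci (50%, 95% Wilson interval 26.8 to 73.2%), against 259 of the 310 other loci (83.5%, 79.0 to 87.3%). The difference was not tested, and 4 of the 7 loci that missed the criteria belong to 1 sequence. All 7 missed them through more than 1 asymmetric bulge, and none through more than 4 unpaired mature bases or a bulge of over 2 nt. Among the other loci, the 20 nt miR169 sequence PotatoMir1004934921 met the criteria at 5 of its 8 loci. It missed them at 3, each with more than 1 asymmetric bulge. Of the 51 other loci that missed the criteria, 27 had more than 1 asymmetric bulge, 24 had more than 4 unpaired bases and 7 had a bulge of over 2 nt, and a locus could miss several criteria. The authors had selected all loci from their own folds, and the shares describe loci that were chosen for such folds.

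In PotatoMir1005405793 an extra base of the star strand, between the partners of mature bases 7 and 8, was found at all 6 loci. Loci 2, 4, 5 and 6 had an extra star base also between the partners of bases 11 and 12, and these loci missed the criteria. With Watson-Crick pairs at all 18 bases scored (the last 2 are the overhang), they nevertheless had the most complete pairing of the 6. Locus 1 had 17 Watson-Crick pairs and an unpaired base 12, and locus 3 had 17 Watson-Crick pairs and a G:U pair at base 15. Both met the criteria. In PotatoMir1003904305 extra star bases were found at other places, between bases 9 and 10 and between bases 13 and 14, and base 1 was unpaired. It missed the criteria.

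**Figure D3:**
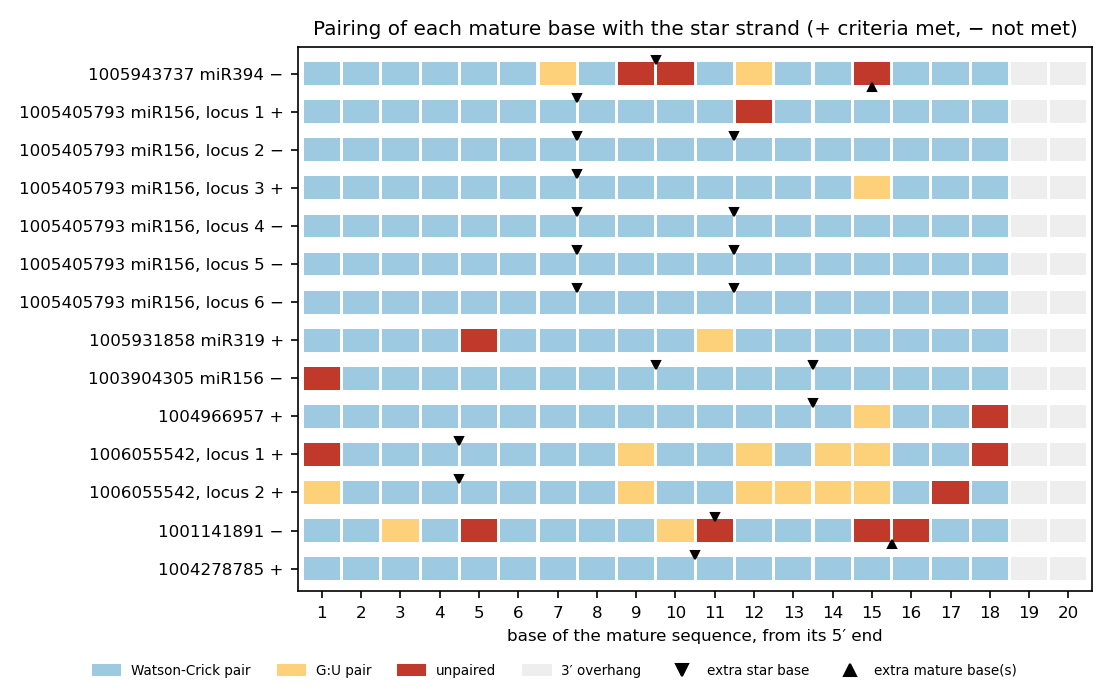
Pairing of mature bases 1 to 18, counted from the 5′ end, with the star strand at the 14 loci, with bases 19 and 20, the 3′ overhang, in grey and not scored. Colours give the kind of pair, triangles mark places where the star or the mature strand has extra bases, and the sign after each name gives whether the criteria were met. Loci 2, 4, 5 and 6 of PotatoMir1005405793 have all 18 scored bases paired and 2 extra star bases each, and 7 of the 14 loci meet the criteria.

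PotatoMir1005931858, the 20 nt miR319 sequence, lay on the minus strand of PGSC0003DMB000000026 (precursor from 2292039 to 2292211). At 173 nt it had the longest precursor of the 14 loci, and 288 of the 324 loci of the list had a shorter one. Between star and mature sequence there were 133 nt. The star sequence of 20 nt is at the 5′ end and the mature sequence at the 3′ end, both in capitals, to show the long distance between them.
PotatoMir1005931858: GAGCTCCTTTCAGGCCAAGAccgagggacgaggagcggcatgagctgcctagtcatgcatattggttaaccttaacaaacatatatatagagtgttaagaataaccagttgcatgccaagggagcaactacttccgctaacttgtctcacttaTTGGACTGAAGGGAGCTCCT
The duplex had 16 Watson-Crick pairs, a G:U pair at base 11, an unpaired base 5 and no asymmetric bulge, so that the criteria were met. It was the only one of the 14 loci without an asymmetric bulge. The 21 nt miR319 sequence had a precursor of almost equal length, 172 nt, at its single locus.

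PotatoMir1005943737, the miR394 sequence, lay on the plus strand of PGSC0003DMB000000105 (1400644 to 1400703). Its precursor of 60 nt was short, with 44 of the 324 loci of the list below this length, and had a GC share of 56.7%, the highest of the 14 loci. Only 20 nt separate the mature sequence from the star sequence, both in capitals.
PotatoMir1005943737: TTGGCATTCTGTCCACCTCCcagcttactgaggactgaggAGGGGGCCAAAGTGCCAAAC
There were 13 Watson-Crick pairs and G:U pairs at bases 7 and 12. Bases 9, 10 and 15 were unpaired, and the star strand had an extra base between the partners of bases 8 and 11 and the mature strand an extra base between bases 14 and 16. With 2 asymmetric bulges the locus missed the criteria. The sequence with the most reads of the 8 thus had the central bases 9 and 10 unpaired in its duplex.

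No homologue name was given to 4 sequences with together 18 reads at 5 loci, and 3 of the 5 precursors were very short. PotatoMir1004966957 lay on the minus strand of PGSC0003DMB000000322 (592504 to 592546), and its precursor of 43 nt left 2 nt between the strands. PotatoMir1006055542 lay on the minus strand of PGSC0003DMB000000287 (332194 to 332235, 42 nt, locus 1) and on the plus strand of PGSC0003DMB000000603 (362 to 409, 48 nt, locus 2), with 2 and 7 nt between the strands. In the whole list 8 loci had no more than 2 nt there, among them 2 of these loci. The 3 precursors are shown with mature and star sequence in capitals, to show how little lies between them.
PotatoMir1004966957: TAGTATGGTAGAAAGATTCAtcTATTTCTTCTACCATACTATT
PotatoMir1006055542 locus 1: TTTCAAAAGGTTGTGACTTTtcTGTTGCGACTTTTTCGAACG
PotatoMir1006055542 locus 2: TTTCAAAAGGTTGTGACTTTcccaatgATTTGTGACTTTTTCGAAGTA
PotatoMir1004966957 had 16 Watson-Crick pairs, 1 G:U pair, 1 unpaired base and 1 extra star base, and met the criteria. The 2 precursors of PotatoMir1006055542 were identical at 39 of 49 aligned columns (79.6%). Their duplexes met the criteria with 4 G:U pairs at locus 1 and 6 at locus 2, the highest numbers of the 14 loci. When G:U pairs were counted as mismatches, both of these loci and no other of the 14 lost the call, and the share among the other 310 loci became 54.5%.

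The 2 sequences with a single read had precursors of ordinary length. PotatoMir1001141891 lay on the plus strand of PGSC0003DMB000000096 (305521 to 305599, 79 nt) and missed the criteria, with 12 Watson-Crick pairs, 2 G:U pairs, 4 unpaired bases and 2 asymmetric bulges, the larger of 2 nt. PotatoMir1004278785 lay on the minus strand of PGSC0003DMB000000008 (2316689 to 2316764, 76 nt) and met them. Its precursor is shown, with the star sequence at the 5′ end and the mature sequence at the 3′ end in capitals, because the pairing was the most complete among the sequences without a name.
PotatoMir1004278785: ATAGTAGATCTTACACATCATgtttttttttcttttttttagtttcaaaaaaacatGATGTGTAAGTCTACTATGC
It had 18 Watson-Crick pairs, no unpaired mature base and 1 extra star base between the partners of bases 10 and 11. Its GC share of 25% was the lowest of the 14 precursors.

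The minimum free energy of the fold is given per 100 nt, since longer precursors have lower energies. Over the 14 loci the median was -45.9 kcal/mol per 100 nt (range -58.4 to -10.2), against a median of -42.7 (range -87.5 to -12.2) over the 310 other loci. The 9 loci with a homologue name had a median of -49.3 and the 5 loci without one a median of -34.5 kcal/mol per 100 nt, and their ranges overlap. These loci are not independent, since 6 of the 9 belong to PotatoMir1005405793 and 2 of the 5 to PotatoMir1006055542. The difference was not tested. The loci of PotatoMir1005405793 on PGSC0003DMB000000135 had -57.7, -56.9, -58.4, -48.8 and -55.2 kcal/mol per 100 nt in the order of locus 2 to locus 6, and locus 1 had -46.2. All 5 loci were thus lower than locus 1, although locus 5 was close to it. PotatoMir1003904305 had -30.7 kcal/mol per 100 nt, above every locus of the other miR156 sequence. The miR394 precursor had -49.3, the miR319 precursor -45.5, PotatoMir1004278785 had -44.9 and PotatoMir1004966957 had -41.9 kcal/mol per 100 nt. PotatoMir1001141891 had -17.3 kcal/mol per 100 nt, and 317 of the 324 loci of the list were lower. PotatoMir1006055542 had -34.5 at locus 1, and at locus 2 -10.2 kcal/mol per 100 nt (-4.90 kcal/mol for 48 nt), the highest value of the whole list.

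**Figure D4:**
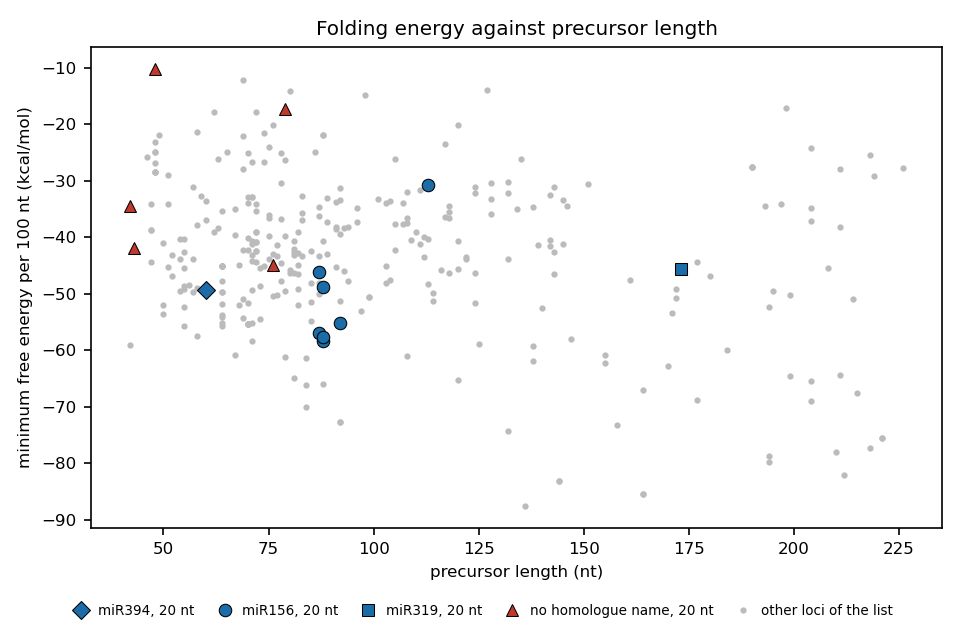
Minimum free energy per 100 nt against precursor length for the 14 loci (large symbols) and the 310 other loci of the list (grey points). The 9 named loci lie between -58.4 and -30.7 kcal/mol per 100 nt and the 5 loci without a name between -44.9 and -10.2.

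Relatives were sought by laying each sequence along every other sequence of the list without gaps, with a shift of at most 2 nt. At most 3 bases were allowed to differ or to overhang. Of the 8 sequences 3 had such a relative, all of them named. PotatoMir1005405793 and PotatoMir1003904305 were relatives of each other. They share 19 bases, and the second starts 1 base earlier and ends 1 base earlier, so that 2 bases overhang and none is a mismatch. They were placed on different superscaffolds. The abundant 21 nt miR156 sequence PotatoMir1005875292 (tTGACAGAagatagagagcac) differed from PotatoMir1005405793 at bases 11 and 14 and by 1 overhanging base. From PotatoMir1003904305, with which it shares its seed, it differed at bases 1, 12 and 15 and by 1 overhanging base. PotatoMir1005931858 shared its seed and its first 19 bases with the 21 nt miR319 sequence PotatoMir1005931793 (tTGGACTGaagggagctccct). The base that follows differed, so that the shorter sequence is not a piece of the longer one. The same seed was found in the 21 nt sequence PotatoMir1005931998, which has no homologue name and 469 reads and differed at 4 bases and by 1 overhanging base. By this count the other 5 sequences had no near relative in the list. The miR394 sequence had its nearest relative at 9 differences and the sequences without a name had theirs at 10 or 11, and none of these 5 shared its seed with another sequence. Because overhanging bases add to the count, the 24 nt sequences of the list could not come within the limit of 3. PotatoMir1006055542 and the 24 nt sequence PotatoMir1005745161 overlapped at 19 bases, of which 15 were identical and 4 mismatched, and 6 bases overhung. None of the 8 sequences, nor its reverse complement, was found inside the precursor of another sequence. The deposited precursors of PotatoMir1005405793 begin with its first base, so that PotatoMir1003904305, which starts earlier, could not have been found in them.

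Target sites were those the study predicted with its stricter setting, and here only their sequences were used. Each site was paired again with the deposited mature sequence. Each mismatch added 1 to the score and each G:U pair 0.5, so that 0 means complete pairing of the aligned bases. Some listed sites are shorter than the mature sequence, and mature bases at the 3′ end beyond them were neither paired nor scored. In all 66 sites of 6 sequences were paired, with a median score of 1.5. The study had selected the sites for their complementarity, so that low scores follow in part from that selection. No site of the 2 sequences with 1 read was used. The sites were not tested by cleavage data, and several transcripts with neighbouring numbers had the same site, so that the numbers count transcripts and not genes.

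Sites are shown from 5′ to 3′ as RNA letters, to show the place of the mismatch in each. Bases that do not form a Watson-Crick pair are in capitals. The first 2 sites are on SPL transcripts, then follow those on GAMYB-type and F-box transcripts.
site of PotatoMir1005405793 on PGSC0003DMT400029748: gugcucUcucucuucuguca
site of PotatoMir1003904305 on PGSC0003DMT400072745: ugcucUcucucuucugucag
site of PotatoMir1005931858 on PGSC0003DMT400015155: gagcucccuucaCuccaa
site of PotatoMir1005943737 on PGSC0003DMT400084722: ggagguUgacagaaugccaa
For PotatoMir1005405793 20 sites were paired, of which 18 were on transcripts annotated as squamosa promoter-binding proteins, SPL9 or LIGULELESS1, a maize protein of the same family. All 18 had a single mismatch among the aligned bases, at base 14, and a score of 1. The site shown here for PGSC0003DMT400029748 was found on 13 of these transcripts. The other transcripts had shorter sites, of 19 nt on 4 and of 18 nt on 1. For PotatoMir1003904305 22 sites were paired, with scores of 1 to 3 and a median of 2, 18 of them on the same 18 transcripts. Of these 18 sites 16 had mismatches at bases 1 and 15, and the remaining 2, on the LIGULELESS1 transcripts PGSC0003DMT400072745 and PGSC0003DMT400072746, had a mismatch at base 15 alone. Over all annotations the sequences shared 19 transcripts, which was 95% of those of PotatoMir1005405793 and 86.4% of those of PotatoMir1003904305. On the shared transcripts the score of PotatoMir1003904305 was higher by 1 at 17 and equal at 2, and it was lower at none. Where the site of PotatoMir1005405793 was shorter, PotatoMir1003904305 was aligned over more bases, so that the scores there do not cover equal lengths. The mismatch at base 15 is the same base of the site as the mismatch at base 14 of PotatoMir1005405793, since the sequences are shifted by 1 base, and the further mismatch is at the additional 5′ base.

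For PotatoMir1005931858 9 sites were paired, with scores of 1 to 2. On 6 transcripts annotated as GAMYB-like the only mismatch among the aligned bases was at base 6, inside the seed. The sites on these 6 transcripts were 18 or 19 nt in length, so that the last base of the mature sequence was not compared. On 2 transcripts of a fiber expressed protein base 11 was a mismatch and base 13 a G:U pair, and the last site was on a gene of unknown function. Bases 9 to 11, where the study's prediction takes a mismatch to mean translational inhibition, were paired at 7 of the 9 sites. The miR394 sequence PotatoMir1005943737 had 1 site, on the transcript PGSC0003DMT400084722 annotated as an F-box family protein, with 19 Watson-Crick pairs and a mismatch at base 14.

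PotatoMir1004966957 had 6 sites with scores of 1.5 to 2.5 and a median of 2, on transcripts annotated as O-methyltransferase, peroxidase, S-receptor kinase, Clp protease subunit and cytochrome P450. At 4 of them there was no mismatch, but 3 or 4 G:U pairs were present. PotatoMir1006055542 had 8 sites with the same range and median. The lowest score, 1.5, was at a site on a transcript annotated as a transcription factor. The other annotations were GPI mannosyltransferase 1, BRASSINOSTEROID INSENSITIVE 1, DELLA protein GAI, C2 domain-containing protein, KDEL-tailed cysteine endopeptidase and binding protein. Bases 9 to 11 were paired at 4 of the 6 sites of PotatoMir1004966957 and at 7 of the 8 sites of PotatoMir1006055542, where G:U pairs were counted as paired. At all 42 sites of both miR156 sequences these bases were paired.

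**Figure D5:**
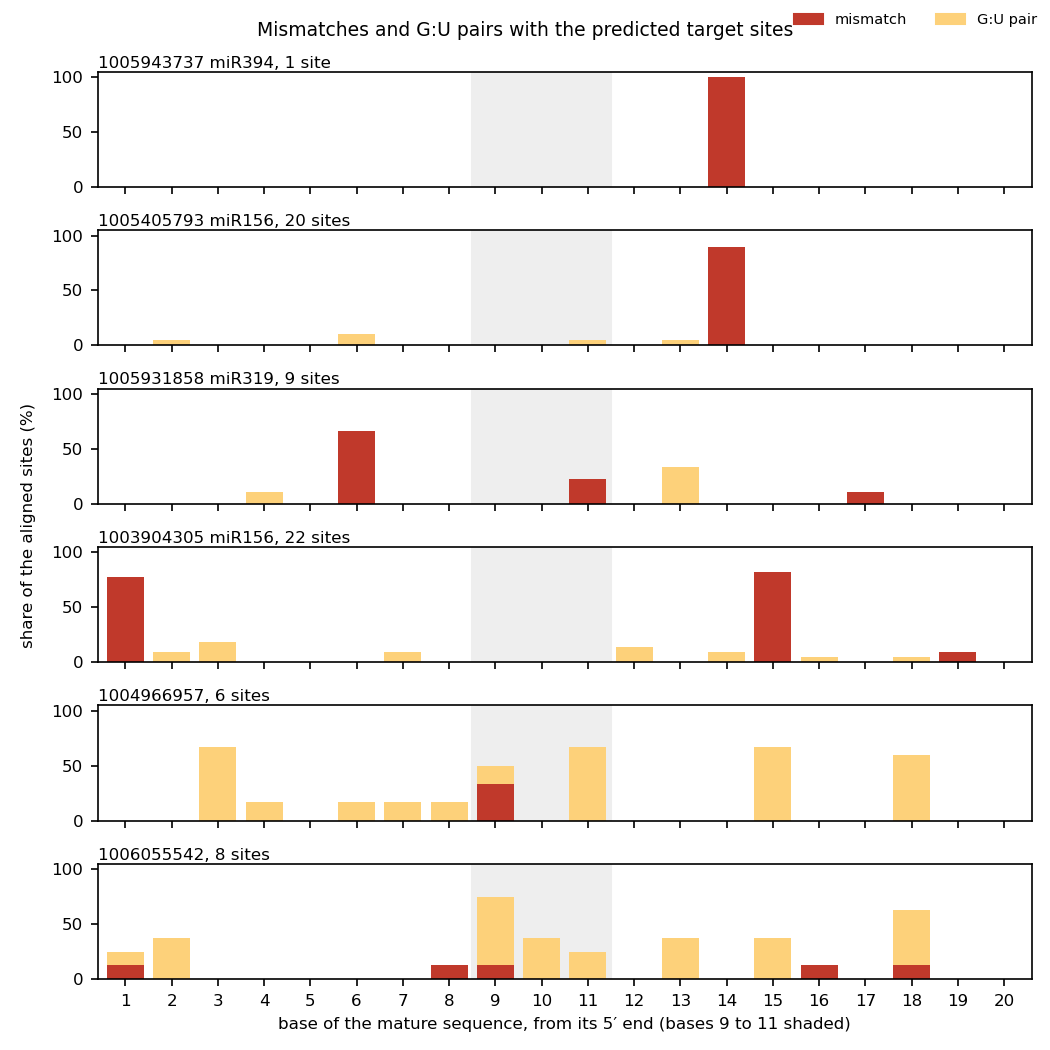
Share of the aligned target sites (%) with a mismatch (red) or a G:U pair (yellow) at each base of the mature sequence, for the 6 sequences with sites and with bases 9 to 11 shaded. The mismatches of PotatoMir1005405793 are all at base 14, those of PotatoMir1003904305 are mostly at bases 1 and 15, and the sites of the 2 sequences without a name are marked mainly by G:U pairs.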

How the data were processed

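The authors trimmed the reads of the 12 libraries (Cutadapt 1.1 per the submitters' processing notes), removed other RNA classes, aligned the reads without mismatches to the DM superscaffolds with Bowtie, and predicted miRNAs with RNAfold and miRDeep-P. The deposited list holds, in the identifier of each mature sequence, a count of identical reads over all libraries, a whole number without normalization. No column holds a single library, so the libraries were grouped by their labels but not compared, and no test was made. Homologue names and target site sequences are from the tables of the study. Precursors were folded with ViennaRNA 2.7.2 at 37 °C. The star sequence was cut on the side of the loop to leave a 3′ overhang of 2 nt, moving by up to 5 nt to reach a paired base. On the other side it ran to the end of the precursor. Bases 19 and 20 of the mature sequence, the overhang, were not scored. Precursors were aligned pairwise with Biopython 1.88, with gap penalties of 2 and 0.5. Intervals are Poisson for reads and Wilson for shares, at 95%, with SciPy 1.17.1. The procedures were run on simulated hairpins with the mature sequence on the 5′ arm and on simulated sites. Mature sequences on the 3′ arm, extra bases of the mature strand and G:U pairs were not simulated. Every member was named. Members, lists and alternatives were chosen with earlier results of these data known. The alternatives were read minimums, the counting unit, G:U pairs as mismatches, a fold at 20 °C, other limits for relatives and distances, and other scoring of target sites.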

Additional observations from a re-analysis of the deposited data

How the results depend on the processing

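The list pools the libraries, so that no replicate could be left out. No paired analysis was possible because the list holds no value of a single library, although the labels give the groups the same replicate numbers. The number of 8 sequences was the same with 2 or 5 differences allowed in the choice and became 6 with at least 5 reads and 5 with at least 10 reads. The 931 reads became 2301 when summed over loci, 586 without the miR394 sequence and 929 with at least 5 reads. Their share of 0.0976% became 0.437% without the most abundant sequence of the list, an alternative chosen after seeing the data. The 7 loci that met the duplex criteria stayed 7 with the fold at 20 °C and with the maximum expected accuracy structure, and became 5 with G:U pairs as mismatches, 6 with at least 5 reads and 4.33 when each sequence was counted once by the share of its loci. The median energy per 100 nt was -60.98 kcal/mol at 20 °C, -43.4 with each sequence counted once and -47.5 with at least 5 reads. Without a shift, 1 sequence had a relative and not 3, since the miR156 sequences match only when shifted. The limit of 200 kb gave 5 neighbouring loci and that of 10 kb gave 2, against 3 at 50 kb. The median target score was 2 with a G:U pair scored 1 and remained 1.5 over the first 17 bases. Read numbers of 1 to 11 limit what can be said of the 4 sequences without a name.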
